A study of Mus musculus with 4 samples.

Results

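Keratins are the intermediate filament proteins of epithelial cells. The genes described here are 10 mouse keratins found by symbol in the deposited gene table: the simple keratins Krt7, Krt8, Krt18, Krt19, Krt20 and Krt23, and the stratified and wound keratins Krt6a, Krt14, Krt16 and Krt36. They are 10 of the 53 keratin genes and of the 30360 genes in that table, and the other 43 keratin genes were used only for comparison. The genes were selected on their measured levels across the classes and libraries of these data, so their order across cell classes is a description and not a test.

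RNA was counted in single cells of colonic organoids, that is, of gel-embedded cultures started from the distal colon, 1 cm from the dentate line, of mice that were 16 weeks old per the labels. Wildtype donors were C57BL/6 mice, and Tnfr2-/- donors (strain B6.129S2-Tnfrsf1b tm1Mwm/J) carried a germline knockout of Tnfrsf1b, the gene of TNF receptor 2, which therefore applied to all cells of the culture and not to the epithelium alone. Cultures of both genotypes were given vehicle (untreated) or 20 ng/ml of the cytokine TNF, tumor necrosis factor, beginning on day 1 of passage 5 and ending on day 6. On day 7 the cultures were harvested, apoptotic cells were depleted with annexin V, and 10x Chromium libraries of transcript 3′ ends were prepared. Each of the 4 conditions had 1 library, so there were no replicates, no test between conditions was made, and 4 values that follow one another below stand in a fixed order, the untreated and then the TNF-treated wildtype library, followed by the untreated and then the TNF-treated Tnfr2-/- library.

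Keratin filaments form from pairs, each a type I chain (here Krt18, Krt19, Krt20, Krt23, Krt14, Krt16 and Krt36) and a type II chain (here Krt7, Krt8 and Krt6a). Krt8 with Krt18 or Krt19 makes up the filaments of the single-layered gut epithelium, and Krt20 is known from the differentiated cells at the crypt surface. Krt14 is the keratin of the basal layer of stratified epithelia, where it pairs with Krt5. Krt6a and Krt16 are induced in wounded epidermis, and Krt36 is a keratin of hair and nail.

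The libraries held 980 to 2589 cells and 44547639 to 87228093 unique molecular identifiers (UMIs, each standing for 1 captured transcript), and 4172 of the 6155 cells belonged to the 7 epithelial classes of the deposited annotation, 1128, 1163, 1023 and 858 in the 4 libraries. Mesenchymal cells numbered 1430, 306, 90 and 122, 35 cells had no class, and 3 cell barcodes occurred in more than 1 library. Tnfrsf1b was not absent from the Tnfr2-/- libraries, with 9.76, 14.0, 2.05 and 7.59 CPM over all cells (CPM being UMIs per 1e6 UMIs), and a 3′ tag need not lie in the altered stretch of the gene, so this checks neither the knockout nor the labels. Xist, the transcript of the inactive X chromosome, stood at 616, 649, 0.169 and 0.0898 CPM over all cells and the Y-linked gene Ddx3y had 82, 372, 168 and 335 UMIs, of which 81, 369, 1 and 1 lay in epithelial cells, so that the sex-chromosome state of the donors and their genotype cannot be told apart. Epithelial Ddx3y stood at 1.61 CPM in the untreated and 8.92 CPM in the TNF-treated wildtype. The wildtype libraries thus differed in it as well, and its part in their TNF differences was not tested. The epithelial marker Epcam stood at 2933, 3162, 2053 and 2485 CPM in the epithelial classes, and the 9 mesenchyme markers summed there to 11.9, 13.7, 3.79 and 4.07 CPM.

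Levels are CPM of summed cells, either those of 1 class or the whole epithelium of a library, scaled to the UMI total of these cells. Values in parentheses after a level or a share are 95% intervals, exact Poisson for levels and exact Clopper-Pearson for shares, and what they cover is counting error alone, since no second culture shows the spread. For levels and ratios of UMIs they also leave out the sampling of cells. They are therefore too narrow where few cells held most UMIs of a gene. The classes were made by the study through clustering of these cells, and the study used Krt8 to tell epithelial cells and to remove doublets of epithelial and mesenchymal cells, so the presence of Krt8 in the epithelial classes and its near absence from mesenchyme were partly built in.

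The genes lie in 2 groups (GRCm38, GENCODE M21). Krt7, Krt8 and Krt6a are on chromosome 15 together with Krt18, and Krt8 (chr15:101996698-102004482, minus strand) is followed there by Krt18 (chr15:102028180-102032027, plus strand). The other type I genes are on chromosome 11, among them Krt20 (chr11:99428403-99438150), Krt14 (chr11:100203162-100207548) and Krt16 (chr11:100246091-100248902), all on the minus strand. Upstream sequence was held for 7 of the 10 genes (RefSeq starts on GRCm38.p6, each window 250 bases before to 50 bases after the start). Windows for Krt19, Krt6a and Krt16 were not used here. Both strands were searched for the AP-1 motif TGANTCA, the TATA box TATAAA, the TEAD motif GGAATG and the GC box GGGCGG, which lay in 7.81%, 13.6%, 14.7% and 35.7% of 32851 such windows of all genes. The AP-1 letters were in none of the 7 windows, and the TEAD letters were in those of Krt20 and Krt14. These 2 are shown because they hold the TEAD letters and because Krt20 and Krt14 were each called lower in Tnfr2-/- within a progenitor class, Krt14 with a call that rested on few cells, as described below. Both lie on the minus strand of chromosome 11, with Krt20 at chr11:99438154-99438403 and Krt14 at chr11:100206031-100206280. The Krt14 bases are upstream of the RefSeq start alone. They lie inside the longer gene model of GENCODE M21, whose 5′ end is at base 100207548. Each of the 2 sequences is printed from 5′ to 3′ and ends at the base before the RefSeq start, and capitals mark TATAAA and GGAATG or its reverse complement CATTCC.
Krt20: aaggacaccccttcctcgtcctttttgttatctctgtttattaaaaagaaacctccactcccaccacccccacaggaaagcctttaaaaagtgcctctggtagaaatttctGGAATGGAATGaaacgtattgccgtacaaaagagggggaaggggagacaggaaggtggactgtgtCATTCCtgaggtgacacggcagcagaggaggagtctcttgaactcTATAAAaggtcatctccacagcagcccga
Krt14: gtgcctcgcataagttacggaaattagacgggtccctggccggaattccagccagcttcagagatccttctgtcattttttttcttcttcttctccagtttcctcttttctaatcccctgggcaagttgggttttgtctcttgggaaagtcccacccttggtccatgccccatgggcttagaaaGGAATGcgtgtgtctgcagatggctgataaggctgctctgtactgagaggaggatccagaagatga
In the Krt20 window the TATA box began at base −29 and the TEAD letters at −139, −134 and −74, counted from the start, and in the Krt14 window the TEAD letters began at −66. The Krt7 window held 4 GC boxes and the Krt8 window a TATA box at the start itself. A match of letters is a description of the sequence and no evidence that a factor binds there.

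Krt8, Krt18, Krt19 and Krt7 were abundant in all epithelial classes. A class of a library was described where it had at least 20 cells, which gave 19 class-by-library groups. In all 19 these 4 genes stood above 20 CPM, from 1705 to 8636 CPM for Krt8, from 767 to 3321 for Krt18, from 268 to 7900 for Krt19 and from 352 to 2651 for Krt7. The highest value of each was in Progenitor.2 of the untreated wildtype, a progenitor class by its annotation name. That group had 62 cells, and 1 cell held 1978 of its 5576 Krt18 UMIs (35.5%). The other 6 genes did not reach 20 CPM in every group. Krt20 reached 20 CPM in 8 of the 19 groups, Krt6a and Krt14 in 7 each, Krt23 in 4, Krt16 in 3 and Krt36 in 2.

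**Figure D1:**
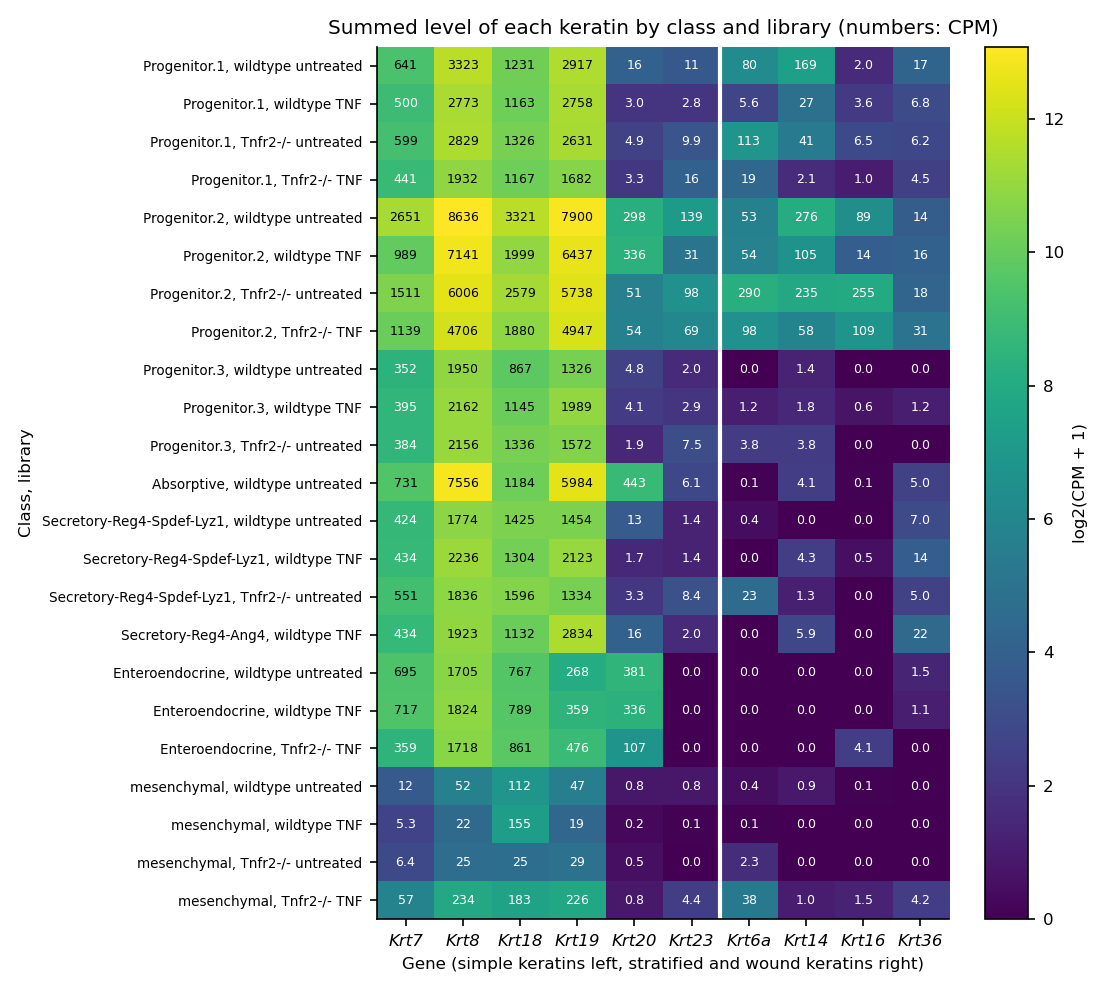
Heat map of the level of the 10 keratins in each class of each library with at least 20 cells, and in the mesenchymal cells of each library; the colour is log2(CPM + 1) and the printed numbers are CPM. Krt7, Krt8, Krt18 and Krt19 exceed 20 CPM in every epithelial row, while Krt16 right of the white line does so in 3 rows, all of them Progenitor.2.

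Summed over the whole epithelium, the type II keratin Krt8 stood at 4702, 4087, 3427 and 4285 CPM and its common partner Krt18 at 1279.7, 1448, 1579 and 1768 CPM. Krt19, the smallest keratin and the other type I partner of Krt8, stood at 3898, 3802, 3172 and 4441 CPM. Krt8 was thus highest in the untreated wildtype, Krt18 in the TNF-treated Tnfr2-/- library and Krt19 in the same library, and none of the 3 differed between libraries by as much as 2-fold. Krt7, a second simple type II keratin that is more typical of ducts than of colon, stood at 717, 647, 773 and 1032 CPM. The 6 simple keratins together took 1.08%, 1.01%, 0.900% and 1.16% of all epithelial UMIs.

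Krt20 had its highest level in Absorptive cells. In the Absorptive class of the untreated wildtype (319 cells, the only library with at least 20 such cells) it stood at 443 (433 to 453) CPM, and after each cell had been thinned at random to 5000 UMIs, 231 of 317 cells (72.9%, interval 67.6 to 77.7) had a Krt20 UMI. The Enteroendocrine class held 381, 336 and 107 CPM of Krt20 in the untreated wildtype, the TNF-treated wildtype and the TNF-treated Tnfr2-/- library. In Progenitor.2 the level was 298, 336, 50.6 and 53.5 CPM, and in Progenitor.1, the cycling progenitors, 16.0, 2.96, 4.93 and 3.32 CPM. Both wildtype libraries were thus high and both Tnfr2-/- libraries low in Progenitor.2, while Progenitor.1 was under 20 CPM in all 4. The thinned share of Progenitor.2 cells with a Krt20 UMI was 60.7% (46.8 to 73.5), 51.5% (45.3 to 57.6), 14.2% (9.94 to 19.5) and 17.5% (14.7 to 20.5), against 0.212% (0.0437 to 0.617), 0 of 298 cells (which allows up to 1.01%), 1.16% (0.0294 to 6.31) and 0.833% (0.0211 to 4.56) of mesenchymal cells, which should lack the gene. The median Progenitor.2 cell held 15574.5, 39167, 33685 and 37713.5 UMIs before thinning, and the median mesenchymal cell 22642.5, 48633, 24549 and 37644.5.

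Enteroendocrine cells, the hormone cells of the gut, had the least Krt19 of the epithelial classes, at 268, 359 and 476 CPM in the 3 libraries named above, where the other epithelial groups had 1326 to 7900 CPM. Their Krt8, at 1705, 1824 and 1718 CPM, and their Krt18, at 767, 789 and 861 CPM, were also at the low end. Their Krt7 was 695, 717 and 359 CPM, within the range of the other classes. Wound keratins were almost missing there, with at most 4.10 CPM in sum.

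The balance of type I and type II chains was taken as a ratio of UMIs. The ratio of Krt8 to Krt18 UMIs in the whole epithelium was 3.67 (3.64 to 3.71), 2.82 (2.80 to 2.85), 2.17 (2.15 to 2.19) and 2.42 (2.40 to 2.44). In the Absorptive class of the untreated wildtype it was 6.38 (6.29 to 6.48), in Progenitor.1 2.70, 2.38, 2.13 and 1.66, and in Progenitor.2 2.60, 3.57, 2.33 and 2.50. The first Progenitor.2 value rests in part on 1 cell, which held 35.5% of the Krt18 UMIs of that group. The Secretory-Reg4-Spdef-Lyz1 class included the lowest epithelial ratios, with 1.25 (1.19 to 1.30), 1.71 (1.67 to 1.76) and 1.15 (1.10 to 1.20) in the 3 libraries with at least 20 such cells. Absorptive cells thus had the most Krt8 per Krt18, and these secretory cells of the 2 untreated libraries the least. A UMI ratio of 2 genes depends on how well each 3′ end is captured, so it is compared between classes and libraries and is not a ratio of protein.

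Krt19 per Krt18 followed a similar order at its top and another at its bottom. It was 5.06 (4.98 to 5.13) in the Absorptive class and 0.350 (0.293 to 0.416), 0.455 (0.397 to 0.521) and 0.552 (0.469 to 0.650) in Enteroendocrine cells. Among the 19 groups described, Krt19 was under Krt18 in all 3 Enteroendocrine ones. It was also under Krt18 in Secretory-Reg4-Spdef-Lyz1 of untreated Tnfr2-/-, at 0.835 (0.797 to 0.876). Over all mesenchymal cells the ratio of Krt8 to Krt18 was 0.459, 0.143, 0.982 and 1.28, but the classes behind these sums differed between libraries, with 0.404 in Mesenchyme-Ifitm1 and 2.25 in Mesenchyme-generic of the untreated wildtype, where 15 of the 1430 cells held 65.7% of the Krt8 and 61.9% of the Krt18 UMIs. The mesenchymal level of Krt18 was 112, 155, 25.3 and 183 CPM, against 51.6, 22.2, 24.8 and 234 CPM of Krt8.

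**Figure D2:**
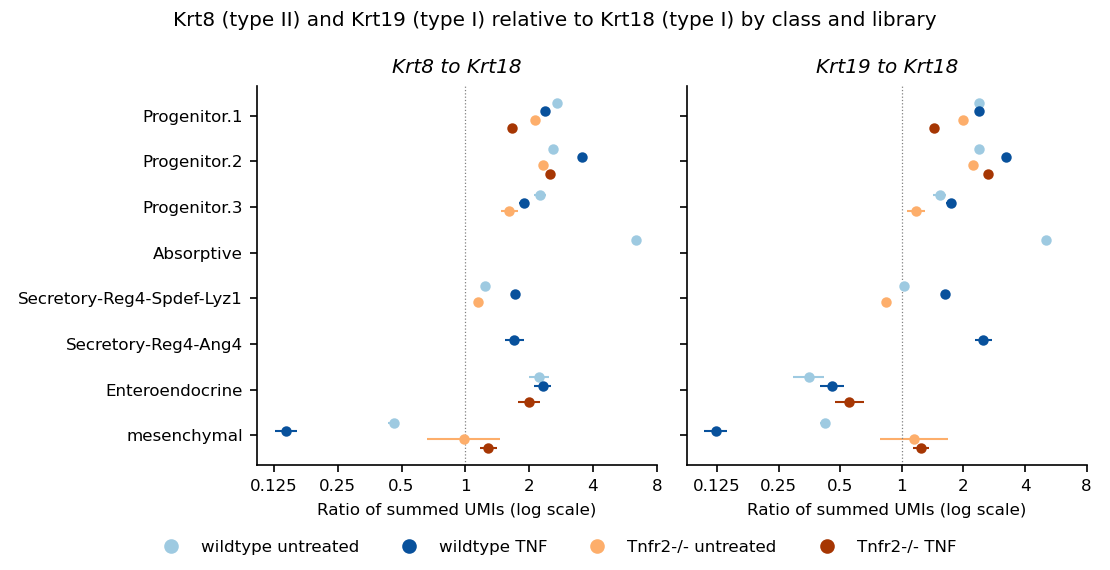
Ratio of summed UMIs of Krt8 to Krt18 (left) and of Krt19 to Krt18 (right) on a log axis, 1 point per class and library, with bars for the 95% counting interval and a dotted line at 1. The Absorptive point lies farthest right in both panels (6.38 and 5.06), and Enteroendocrine cells lie right of the line for Krt8 and left of it for Krt19.

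The wound and basal keratins were measured mainly in Progenitor.1 and Progenitor.2. Their sum (Krt6a, Krt14, Krt16 and Krt36) over the epithelium was 165, 80.6, 279 and 254 CPM, or 1.51%, 0.791%, 3.01% and 2.14% of the UMIs of the 10 keratins. In Progenitor.1 the sum was 268, 43.2, 167 and 26.9 CPM and in Progenitor.2 431, 189, 799 and 295 CPM. The Absorptive class had 9.28 CPM (0.0583% of its keratin UMIs), and Progenitor.3 and the secretory classes had 1.36 to 29.3 CPM. Mesenchymal cells had 1.32, 0.0680, 2.30 and 44.4 CPM, and 87.8% of the 180 Krt6a UMIs behind the last of these lay in 2 cells.

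Krt6a, the type II keratin of wounded epidermis, stood in Progenitor.2 at 53.0 (42.6 to 65.2), 54.1 (50.1 to 58.3), 290.1 (279.6 to 301) and 97.6 (94.3 to 101) CPM. In Progenitor.1 it stood at 79.7, 5.64, 113 and 19.3 CPM. Both Tnfr2-/- libraries were above both wildtype libraries in Progenitor.2, and both untreated libraries were above both TNF-treated ones in Progenitor.1. The thinned share of Progenitor.2 cells with a Krt6a UMI was 5.36% (1.12 to 14.9), 6.30% (3.71 to 9.89), 22.7% (17.4 to 28.7) and 11.1% (8.91 to 13.7). In mesenchymal cells, which should lack the gene, it was 0.353% (0.115 to 0.822), 0 of 298 cells (which allows up to 1.01%), 0 of 86 cells (which allows up to 3.49%) and 2.50% (0.519 to 7.13), under the Progenitor.2 share in each library.

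Krt14, the basal type I keratin, stood in Progenitor.2 at 276 (251 to 302), 105 (99.9 to 111), 235 (226 to 245) and 58.0 (55.5 to 60.6) CPM. Both untreated libraries were thus above both TNF-treated ones. In Progenitor.1 it stood at 169, 27.1, 41.4 and 2.15 CPM, again with the untreated library of each genotype above the TNF-treated one. Thinned shares in Progenitor.2 were 14.3% (6.38 to 26.2), 6.30% (3.71 to 9.89), 12.0% (8.06 to 17.0) and 5.35% (3.81 to 7.27), and in mesenchymal cells 0.141% (0.0171 to 0.509), 0 of 298 cells (which allows up to 1.01%), 0 of 86 cells (which allows up to 3.49%) and 0.833% (0.0211 to 4.56). The last 500 bases of the annotated Krt14 transcript share 81 of their 470 stretches of 31 bases (17.2%) with Krt17 and 25 (5.32%) with Krt16, so a part of the reads could not have been told apart between these genes. Krt6a shared no such stretch with its relative Krt6b or any other keratin.

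Krt16, the type I partner of Krt6a, stood in Progenitor.2 at 88.7 (75.1 to 104), 14.2 (12.2 to 16.4), 255 (246 to 266) and 109 (105 to 112) CPM. In Progenitor.1 it was at 2.03, 3.61, 6.53 and 0.975 CPM, under 20 in each library. The Tnfr2-/- library was thus above the wildtype one of the same treatment in Progenitor.2. Thinned shares of Progenitor.2 cells with a Krt16 UMI were 5.36% (1.12 to 14.9), 2.96% (1.29 to 5.75), 9.78% (6.23 to 14.4) and 7.89% (6.01 to 10.1), and of mesenchymal cells 0.0706% (0.00179 to 0.393), 0 of 298 cells (which allows up to 1.01%), 0 of 86 cells (which allows up to 3.49%) and 0.833% (0.0211 to 4.56). The ratio of Krt16 to Krt14 UMIs over the epithelium was 0.0397 (0.0344 to 0.0456), 0.134 (0.117 to 0.153), 0.719 (0.684 to 0.755) and 1.87 (1.77 to 1.97), and in untreated Tnfr2-/- a single cell with 0 UMIs of Krt14 held 1363 of the 2772 Krt16 UMIs. Within Progenitor.2 the ratio was 0.322, 0.135, 1.09 and 1.88. In the wildtype it was thus higher with TNF over the epithelium but lower with TNF within Progenitor.2. Krt36 stayed low throughout, with 12.0, 10.3, 8.27 and 26.9 CPM over the epithelium and its highest class value, 30.9 CPM, in Progenitor.2 of the TNF-treated Tnfr2-/- library.

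Progenitor.2 was set against Progenitor.1 within each library. A gene was called where every pair of libraries or classes compared differed by 2-fold or more, always in 1 direction, on log2(CPM + 1), with at least 20 CPM on 1 side of each pair. Of 5598 genes tested in this comparison 6.52% were called higher and 8.36% lower in Progenitor.2. Of the 10 keratins 8 reached the minimum, and 4 of them (Krt8, Krt19, Krt20 and Krt23) were called higher and 0 lower. The classes came from clustering on these genes, so this is a description of the classes. The median log2 difference of the 8 genes was 1.43, 1.64, 1.34 and 1.81 in the 4 libraries, beside −0.08, −0.10, −0.07 and −0.15 over all genes.

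Krt20 differed by 4.14, 6.41, 3.12 and 3.66, and Krt23, a type I keratin, by 3.55, 3.07, 3.19 and 2.07. Krt8 differed by 1.38, 1.36, 1.09 and 1.28 and Krt19 by 1.44, 1.22, 1.12 and 1.56. Krt7 and Krt18 were also higher in all 4 libraries, by 2.05, 0.98, 1.33 and 1.37 and 1.43, 0.78, 0.96 and 0.69, but fell short of 2-fold in at least 1. In Progenitor.2 of the untreated wildtype (62 cells) the highest cell for Krt23 held 60.1% of its UMIs, and the highest cell for Krt18 held 35.5%. The wound keratins were less even. Krt14 was higher in Progenitor.2 by 0.71, 1.92, 2.48 and 4.23, whereas Krt6a differed by −0.58, 3.05, 1.35 and 2.28, with Progenitor.1 above Progenitor.2 in the untreated wildtype. Beside this, the 5 regenerative markers summed to 2845, 2141, 2623 and 1692 CPM in Progenitor.1 and 13128, 8789.5, 12633 and 8534 CPM in Progenitor.2, and the markers of the cell cycle to 901, 944, 1171 and 1495 CPM in Progenitor.1 and 26.2, 65.9, 123 and 170 CPM in Progenitor.2.

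Genotype was compared within each treatment, as Tnfr2-/- minus wildtype, first over the whole epithelium. Here 1.13% of 5663 genes were called higher and 1.41% lower in Tnfr2-/-. Of the 10 keratins 9 reached the minimum, 3 were called higher (Krt23, Krt6a and Krt16) and 1 lower (Krt20). Krt16 was at 4.09, 6.05, 54.7 and 92.4 CPM, which gave log2 differences of 3.45 and 3.73. Krt6a was at 45.5, 19.1, 139.8 and 85.3 CPM, with log2 differences of 1.60 and 2.10. Both wound keratins were thus higher in both Tnfr2-/- libraries than in either wildtype library.

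Krt23 stood at 12.7, 11.8, 26.8 and 60.4 CPM, with log2 differences of 1.02 and 2.26. The untreated value lay at the edge of 2-fold, and with TMM scaling it was 0.92, so the call ended there, and with Progenitor.1 and Progenitor.2 given equal weight it was −0.47. Krt20 stood at 166, 120.5, 18.5 and 47.9 CPM, with log2 differences of −3.10 and −1.31. The TNF pair was −0.89 when each cell counted equally, which ended that call. The Absorptive class, in which Krt20 was highest, held 319, 19, 11 and 1 cells, and the 8 absorptive markers summed to 4477, 997, 405 and 564 CPM over the epithelium. The part of this class in the difference of Krt20 over the epithelium was not tested, and the within-class values follow.

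Krt14, by contrast, was called in neither direction over the epithelium, at 103, 45.1, 76.2 and 49.5 CPM. The simple keratins Krt7, Krt8, Krt18 and Krt19 differed by 0.11 and 0.67, −0.46 and 0.07, 0.30 and 0.29 and −0.30 and 0.22 in log2, the untreated pair first, and with median-of-ratios scaling the untreated difference of Krt7 was −0.01. None of them reached 2-fold in either pair. Krt36 did not reach the minimum. Over the 9 keratins the median log2 difference was 0.11 and 0.29, beside 0.10 and −0.12 over all genes.

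The make-up of the epithelium moved with the conditions. Progenitor.2 gave 5.73%, 41.0%, 21.2% and 86.8% of the UMIs of the 2 main progenitor classes together. With Progenitor.1 and Progenitor.2 weighted equally in each library, Krt16 stood at 45.4, 8.90, 131 and 54.9 CPM, and of the 3 keratins called higher only Krt16 was still called. The comparison is therefore given for both classes on their own.

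Within Progenitor.2, where 1.1% of 5456 genes were called higher and 1.81% lower in Tnfr2-/-, 9 of the 10 keratins reached the minimum. Krt16 was called higher, with log2 differences of 1.52 and 2.85. This call ended without the highest cell of each sum (0.99 in the untreated pair), and without the top 1% of cells the untreated difference was −0.34, 1 cell of untreated Tnfr2-/- holding 1363 of the 2532 Krt16 UMIs of its sum. Krt20 was called lower, with −2.54 and −2.63. Krt20 in Progenitor.2 thus stood at 298 and 336 CPM in the wildtype libraries and at 50.6 and 53.5 CPM in the Tnfr2-/- ones. The 8 absorptive markers summed in these cells to 3766, 2073, 786 and 623 CPM, in the same direction as Krt20. Krt6a differed by 2.43 and 0.84, at least 2-fold in the untreated pair alone. Krt14 differed by −0.23 and −0.85 and Krt8 by −0.52 and −0.60.

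Within Progenitor.1, where 0.367% of 5720 genes were called higher and 0.647% lower in Tnfr2-/-, 5 of the 10 keratins reached the minimum and 1, Krt14, was called lower, with −2.00 and −3.16. This call ended without the highest cell of each sum (−2.35 and −2.86) and without the top 1% of cells (−2.61 and −1.24), since the TNF pair then stayed under 20 CPM. Krt6a in Progenitor.1 differed by 0.50 and 1.61, in the direction of its difference over the epithelium, but it did not reach the minimum in the TNF pair. In that pair 1 cell held 72 of the 99 Krt6a UMIs of Tnfr2-/-, and 1 cell held 64 of the 103 of the wildtype. Krt8 differed by −0.23 and −0.52 and Krt18 by 0.11 and 0.00.

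**Figure D3:**
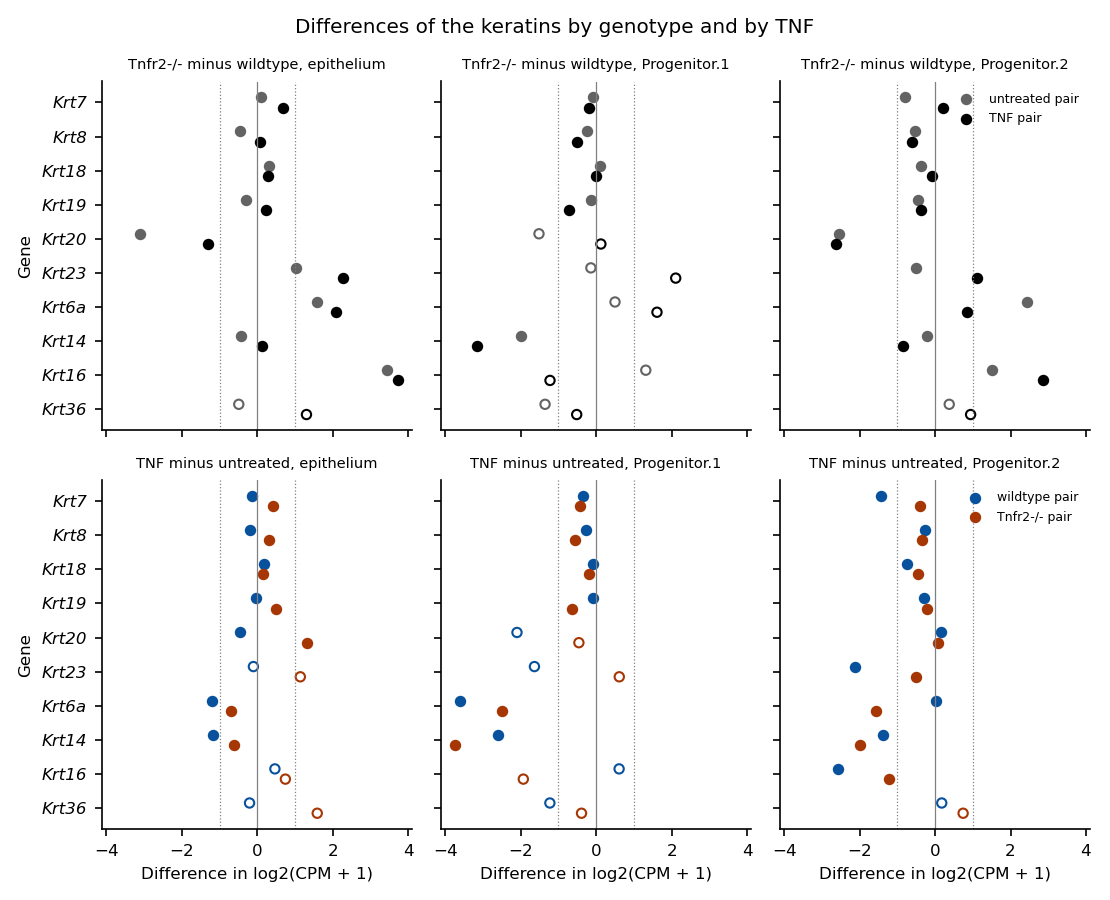
Difference in log2(CPM + 1) of each keratin by genotype (top row; grey for the untreated and black for the TNF pair) and by TNF (bottom row; blue for the wildtype and brown for the Tnfr2-/- pair), in the epithelium, Progenitor.1 and Progenitor.2; open circles are genes that did not reach 20 CPM in each pair, and dotted lines mark 2-fold. Krt8, Krt18 and Krt19 lie between the dotted lines in every panel, and Krt14 lies left of 0 in every panel of the bottom row.

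TNF was compared with no treatment within each genotype. Over the epithelium 0.92% of 5545 genes were called higher and 0.0721% lower, 7 of the 10 keratins reached the minimum, and 0 were called in either direction. Krt6a differed by −1.21 and −0.71 and Krt14 by −1.17 and −0.61 in wildtype and Tnfr2-/-, so both were lower with TNF in both genotypes but past 2-fold in the wildtype alone. With Progenitor.1 and Progenitor.2 weighted equally, 3 keratins (Krt6a, Krt14 and Krt16) were called lower with TNF. The share of 0.0721% does not apply to this weighting, under which more genes of the whole table were called lower (counts in the last paragraph). The 4 abundant simple keratins differed by no more than 0.49 in log2 in either direction. Krt20 differed by −0.46 and 1.33, lower with TNF in the wildtype and higher in Tnfr2-/-, and the difference between these was not tested.

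Within Progenitor.1, Krt6a and Krt14 were lower with TNF. Here 0.286% of 5598 genes were called higher and 0.286% lower, 6 of the 10 keratins reached the minimum, and Krt6a and Krt14 were called lower. Krt6a differed by −3.60 and −2.49 and Krt14 by −2.59 and −3.75, the wildtype pair first. Without the top 1% of cells Krt14 differed by −3.38 and −2.02 but no longer reached 20 CPM in each pair, which ended its call. Krt7, Krt8, Krt18 and Krt19 were lower as well, with differences of −0.36 and −0.44, −0.26 and −0.55, −0.08 and −0.18 and −0.08 and −0.65, none of them 2-fold. The number of Progenitor.1 cells was 546, 335, 647 and 95.

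Within Progenitor.2, where 0.417% of 5274 genes were called higher and 0.512% lower with TNF, 9 of the 10 keratins reached the minimum and Krt14 and Krt16 were called lower. Krt14 differed by −1.38 and −2.00 and Krt16 by −2.56 and −1.22. The Krt16 call ended without the highest cell of each sum (−0.50 in Tnfr2-/-) and without the top 1% of cells (−0.65). When each cell counted equally the wildtype difference of Krt14 was −0.00, which ended that call. Krt6a differed by 0.03 and −1.56, so it was past 2-fold in Tnfr2-/- alone. Krt7 and Krt23 differed past 2-fold in the wildtype alone, by −1.42 and −0.41 and −2.12 and −0.50. In the untreated wildtype the highest cell for Krt23 held 140 of its 233 UMIs (60.1%), and the highest cell for Krt7 held 19.3% of its UMIs. The median over the 9 keratins was −0.73 and −0.46, beside 0.00 and −0.10 over all genes. Progenitor.2 of the untreated wildtype had 62 cells with a median of 15574.5 UMIs, fewer and shallower than the 233 to 716 cells of the other libraries, and each wildtype difference in this class rests on them. Genes known to respond to dissociation summed to 2277, 4643, 2604 and 2507 CPM in these cells, and their part in the differences was not tested.

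Krt6a, Krt14 and Krt16 UMIs lay mostly in few cells. The 1% of epithelial cells with the most UMIs of a gene held 69.1%, 82.9%, 46.9% and 48.1% of all Krt6a UMIs, 73.9%, 82.8%, 74.2% and 76.1% of Krt14, and 98.1%, 67.6%, 86.5% and 74.8% of Krt16. The same share was 89.4%, 62.4%, 56.3% and 47.2% for Krt36, 50.5%, 55.7%, 46.9% and 25.8% for Krt23, 12.8%, 21.5%, 38.8% and 17.0% for Krt20 and 8.24%, 11.0%, 7.86% and 8.05% for Krt8. The cells with the most UMIs that together held 50% of the total were counted next, and for Krt16 this total lay in 2, 7, 2 and 3 cells, for Krt14 in 6, 5, 5 and 3, for Krt6a in 6, 5, 13 and 10, and for the simple keratin Krt23 in 12, 10, 14 and 31, whereas for Krt8 it lay in 184, 136, 182 and 147 cells. Krt8 was thus spread over the epithelium, while the UMIs of Krt23, as well as those of the wound keratins, lay in few cells.

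**Figure D4:**
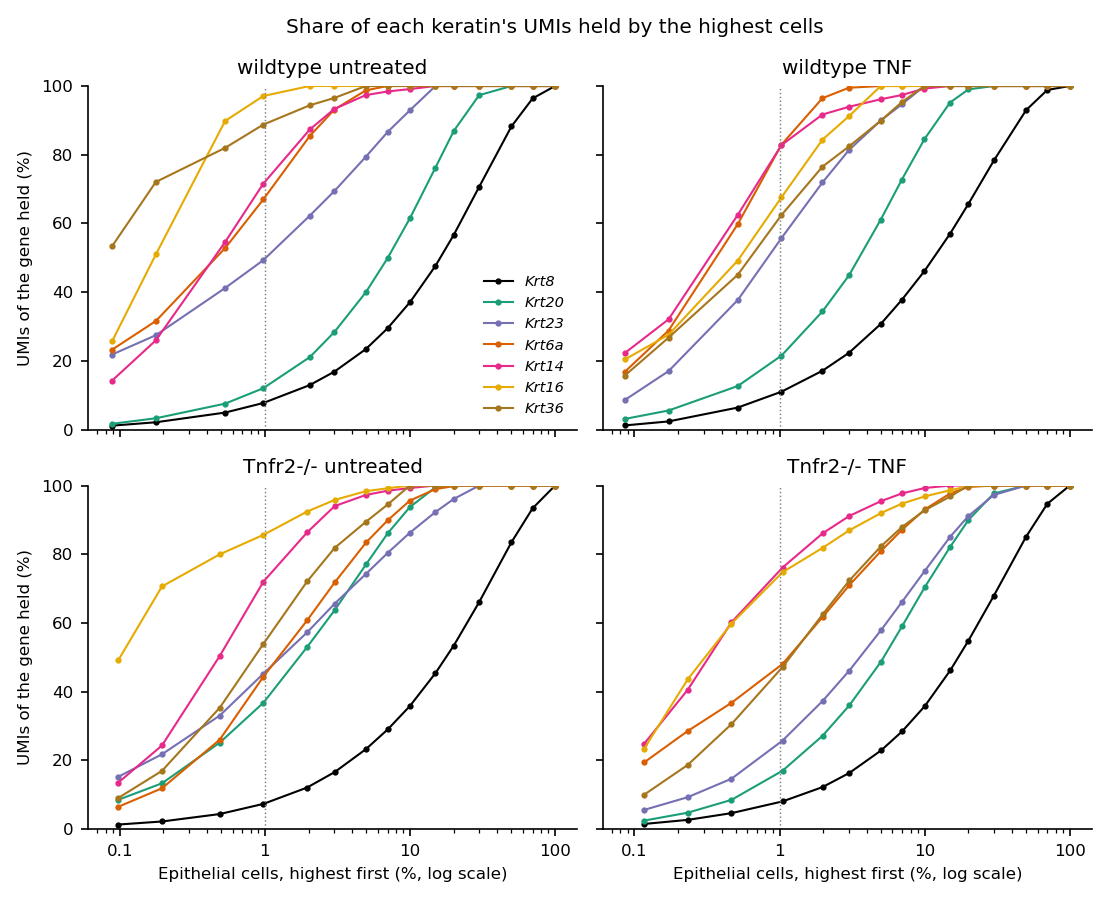
Share of the UMIs of a keratin (vertical axis, %) held by the epithelial cells with the most UMIs of it (horizontal axis, % of cells on a log scale, highest first), 1 panel per library; the dotted line marks 1% of cells. Krt8 climbs last in every library. With 1% of cells rounded up to a whole cell, these cells held 7.86% to 11.0% of Krt8 UMIs and 73.9% to 82.8% of Krt14 UMIs. The curves round to the nearest cell, so their points can differ slightly.

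Cells with at least 10 UMIs of a gene were counted as cells high for it. There were 36, 16, 102 and 62 epithelial cells high for Krt6a, or 3.19%, 1.38%, 9.97% and 7.23%, and they held 94.0%, 91.9%, 95.6% and 87.7% of its UMIs. Of these cells 34, 2, 57 and 1 were in Progenitor.1 and 2, 14, 44 and 61 in Progenitor.2. The sizes of these classes moved with the libraries as well, 546, 335, 647 and 95 cells of Progenitor.1 and 62, 273, 233 and 716 of Progenitor.2. Cells high for Krt14 numbered 42, 18, 33 and 24, of which 35, 4, 16 and 0 were in Progenitor.1, and cells high for Krt16 numbered 6, 6, 24 and 38, of which 3, 5, 16 and 38 were in Progenitor.2. These cells were deep, with medians from 44569.5 to 71486 UMIs for the 3 genes against 30306 to 41057 over the epithelium. Of the Krt6a-high cells 17 of the 36, 15 of the 16, 87 of the 102 and 57 of the 62 had no UMI of any of the 9 mesenchyme markers.

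Krt6a was found in part in the same cells as Krt14 and Krt16. Of the cells high for Krt6a, 21, 6, 24 and 10 were also high for Krt14, which is 50%, 33.3%, 72.7% and 41.7% of the Krt14-high cells and 58.3%, 37.5%, 23.5% and 16.1% of the Krt6a-high cells. For Krt6a with Krt16 the numbers were 2, 2, 20 and 19, or 33.3%, 33.3%, 83.3% and 50% of the Krt16-high cells. Cells high for both Krt16 and Krt36 numbered 0, 2, 1 and 4. In thinned cells, which were all of 1 depth, the share with a UMI of both Krt6a and Krt14 was 2.21%, 0.573%, 2.53% and 1.54%, where the product of the single shares was 0.216%, 0.0840%, 0.600% and 0.458%. For Krt16 with Krt36 it was 0%, 0.229%, 0.101% and 0.827%, beside products of 0.00917%, 0.0346%, 0.108% and 0.429%. Krt14 and Krt20 met in 0.645%, 0.916%, 0.303% and 0.118% of the cells, beside products of 1.40%, 0.752%, 0.281% and 0.738%. Over the epithelium, cells with both were thus above the product in each library for Krt6a with Krt14. For Krt14 with Krt20 they were above it in 2 libraries and under it in 2. Within Progenitor.2 alone, Krt14 and Krt20 met in 2, 7, 2 and 1 thinned cells. These were 3.57%, 2.59%, 0.889% and 0.141%, under the products of 8.67%, 3.24%, 1.71% and 0.935% in each library.

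In the untreated Tnfr2-/- library 1 Progenitor.2 cell held 1363 of the 2772 epithelial Krt16 UMIs (49.2%), together with 290 UMIs of Krt6a and 0 of Krt14. In the TNF-treated Tnfr2-/- library 1 Progenitor.2 cell of 50174 UMIs was the highest of the epithelium for Krt6a (658 UMIs), Krt14 (488), Krt16 (859) and Krt36 (107) at once, and also held 867 UMIs of Krt6b, a close relative of Krt6a. In the untreated wildtype the cell highest for Krt14 held 740 UMIs of it and 0 of Krt6a. None of these 3 cells held a UMI of Krt5, the usual partner of Krt14 in stratified epithelium, or of Trp63, the transcription factor of its basal cells.

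Without the highest cell of each sum, Krt16 in Progenitor.2 was at 59.3, 10.2, 118 and 83.4 CPM, and its genotype difference was 0.99 in the untreated pair, just under 2-fold, and 2.91 in the TNF pair. Without the top 1% of cells it was at 59.3, 7.73, 46.6 and 29.3 CPM, with genotype differences of −0.34 and 1.79, so the untreated direction turned. Its TNF difference in Tnfr2-/- went from −1.22 to −0.50 without the highest cell. Krt14 in Progenitor.1 was at 142, 19.2, 27.2 and 1.77 CPM without the highest cell, and the TNF pair no longer reached 20 CPM, which ended its genotype call there. Krt6a in Progenitor.2 stood at 16.7, 30.7, 206 and 52.2 CPM without the top 1%, with both Tnfr2-/- libraries still above both wildtype ones. Over the epithelium without the top 1%, Krt6a was at 14.3, 3.34, 75.5 and 45.1 CPM and was the 1 keratin still called higher in Tnfr2-/-, while Krt16 (2.97 and 3.03) and Krt23 (1.07 and 2.88) were past 2-fold but no longer reached 20 CPM in both pairs.

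**Figure D5:**
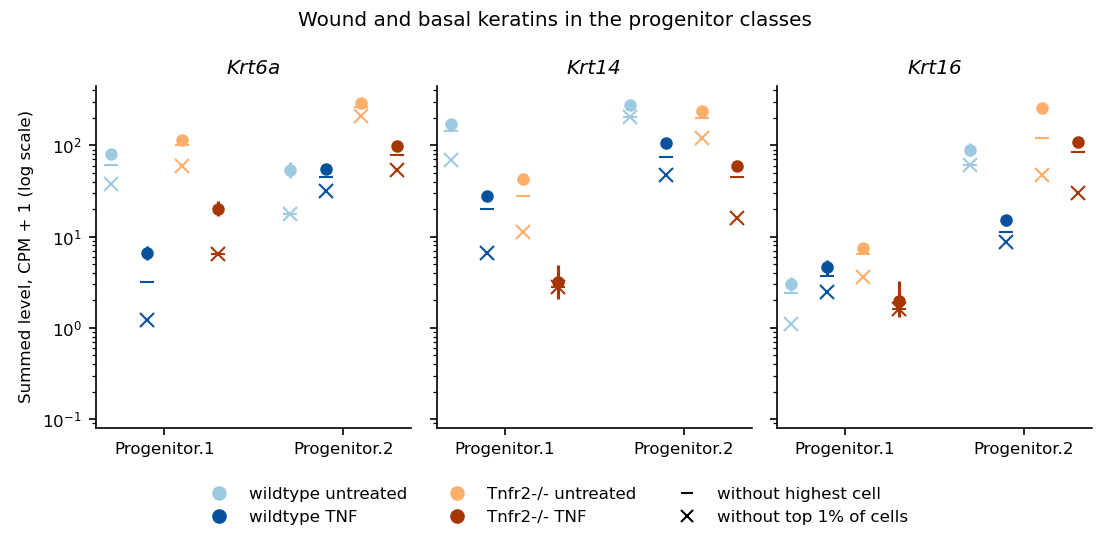
Level of Krt6a, Krt14 and Krt16 in Progenitor.1 and Progenitor.2 of each library (CPM + 1 on a log axis; dots with 95% counting intervals), with the level without the highest cell (dash) and without the top 1% of cells (cross). The crosses of Krt16 in Progenitor.2 (59.3, 7.73, 46.6 and 29.3 CPM) lie closer together than the dots, and those of Krt6a keep both Tnfr2-/- libraries above both wildtype ones.

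Of the other 43 keratin genes, 10 had 0 UMIs in all cells, 29 had UMIs but stayed under 20 CPM in every group, and 4 reached it. Krt6b reached 44.3 CPM in Progenitor.2 of the TNF-treated Tnfr2-/- library, and 58.0% of its UMIs there came from the single cell described above. Krt10, a keratin of the upper epidermis, reached 44.2, 29.9 and 26.7 CPM in the Enteroendocrine groups and 24.3 CPM in the mesenchyme of the untreated wildtype. It also reached 22.0 CPM in Progenitor.2 of the untreated wildtype and 20.5 CPM in Progenitor.3 of the TNF-treated wildtype. Every epithelial group held at least 8.86 CPM of Krt10. Krt87, a hair keratin, reached 59.5 and 67.8 CPM in the Enteroendocrine cells of the wildtype libraries, and Krt27 reached 23.2 CPM in Progenitor.2 of the untreated wildtype. The markers of squamous epithelium (13 genes, Krt5, Trp63 and Sox2 among them) summed to 19.8, 21.5, 28.5 and 30.8 CPM over the epithelium. Krt10, also among the 13, held 14.5, 14.0, 16.2 and 14.9 CPM of these sums. The sums were higher in both Tnfr2-/- libraries than in both wildtype ones, and most of this rise lay in members of the list other than Krt10. By genotype over the epithelium 0 of the 13 reached the minimum, so none could be called. Trp63, Sox2 and Krtdap were at 0 in each library and Krt5 at no more than 0.12 CPM, so the rise was not in these 4 genes. Krt5 and Trp63, which define the basal layer of stratified epithelium, were therefore at or near 0 where the wound keratins were measured.

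Keratins are tied to desmosomes and hemidesmosomes by linker proteins, and 26 genes of these were followed. In Progenitor.2 against Progenitor.1, 7 of the 18 measured were called higher and 0 lower, where 6.52% of all genes were called higher and 8.36% lower. They included Plec, which codes for plectin (795, 639.8, 432 and 371 CPM in Progenitor.2 against 107, 114, 114.0 and 83.5 in Progenitor.1), Dsp, which codes for desmoplakin (562, 595, 618 and 636 against 219, 231, 262 and 264), Itgb4 and Evpl. By genotype and by TNF over the epithelium 1 of 17 was called higher (beside 1.13% and 0.92% of all genes), each time Pkp1, the desmosomal plakophilin of stratified epithelia, at 19.7, 44.1, 42.0 and 115 CPM. Within the progenitor classes none was called by genotype or TNF.

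Cornified envelope and stratification genes, many of them coding for the protein shell of differentiating squamous cells, were followed as a list of 40, of which 38 were in the table. In Progenitor.2, 7 of 8 measured were called higher than in Progenitor.1 (6.52% of all genes) and 0 lower, among them Sprr1a (129, 124, 119.9 and 226 CPM against 4.78, 7.83, 1.50 and 5.27) and Ly6d, a surface protein (665, 819, 1341 and 1032 against 87.7, 41.1, 258 and 92.4). Sprr2a1 and Sprr2a2 are 2 of the 7 and near-identical copies, so their values are uncertain and they may not count separately. By genotype over the epithelium 2 of 9 were called higher (1.13% of all genes), Crct1 (4.91, 5.88, 83.2 and 287 CPM) and Ly6d (129, 293, 453 and 889 CPM). The list as a whole did not go 1 way. Its median log2 difference was −0.57 in the untreated and 0.72 in the TNF pair, beside 0.10 and −0.12 over all genes. Within Progenitor.2 by genotype 2 of 13 were called higher (1.1% of all genes), Crct1 and Sprr2f. Sprr2f had 0 UMIs in both wildtype groups and stood at 40.5 and 129.9 CPM in Tnfr2-/-, at least 22.6-fold and 549-fold higher than a floor of 3 UMIs in each wildtype library. By TNF, Sprr1a was called higher over the epithelium (1 of 8, beside 0.92% of all genes), Ly6d lower within Progenitor.1 (1 of 4, beside 0.286%), and Sbsn lower within Progenitor.2 (1 of 10, beside 0.512%).

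Of the other intermediate filament genes (15, lamins and vimentin among them) 3 reached the minimum in Progenitor.2 against Progenitor.1, and the nuclear lamins Lmnb1 (6.55, 8.67, 12.0 and 12.2 CPM against 89.2, 82.4, 98.2 and 88.3) and Lmnb2 were called lower, as were 8.36% of all genes. By genotype or TNF none of them was called.

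The genes whose levels were most like those of each keratin were ranked by Pearson's r of log2(CPM + 1) over 27 class-by-library groups, mesenchymal classes included. The groups share 4 libraries and differ in depth, and the r is a description. Krt8 ranked Pls1 first (0.99), Krt7 Arhgef16 (0.99), Krt19 Serpinb5 (0.99) and Krt18 Dhx32 (0.96), with Krt7 second for Krt18. Krt20 ranked Ceacam20 (0.92), Slc15a1, the gut peptide transporter (0.91), and Gabarapl2 (0.91). Krt23 and Krt6a both ranked Cyp2b10 first (0.93 and 0.87) and Fam46b second, and Krt23 came next for Krt6a (0.85). Krt14 ranked Msln (0.91), Trim29 and Prss22, and Krt16 ranked Plet1 (0.97), the desmosomal cadherin Dsg3 (0.94) and Prl2a1 (0.92). Krt36 ranked F3, the gene of tissue factor (0.89), Itgb6 and Nipal1 (0.88 each). Ceacam20 is among the absorptive markers and Ly6d, the next for Krt23 after these (0.92), in the list of cornified envelope and stratification genes. Dsg3 is among the markers of squamous epithelium.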

How the data were processed

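Single-cell RNA was counted in 4 libraries, 1 per condition. Per the submitters' processing notes the reads were processed with Cell Ranger 5.0.0 against mm10, and the authors deposited raw UMI counts per gene and cell after removing cells under 100 UMIs and doublets of epithelial and mesenchymal cells. The lowest deposited cell had 894 UMIs, and no doublet caller was run here. The deposited size factor of each cell, a score, was not used further. Classes were taken from the deposited annotation.

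UMIs were summed per class and library (at least 20 cells) or over all epithelial cells, and scaled to the summed total of those cells (CPM). Differences were taken on log2(CPM + 1), and a gene was called at 2-fold or more in the same direction in every pair with at least 20 CPM in 1 library of each pair, without a test. Shares of cells were taken after thinning to 5000 UMIs (seed 1), which left out 405 cells. Intervals are exact at 95%, and a count of 0 was read as up to 3 counts. Python 3.11.15, numpy 2.4.6, pandas 2.3.3, scipy 1.17.1, matplotlib 3.10.9 and, for TMM factors alone, edgeR 4.0.16 in R 4.3.3 were used, and the scripts were tested on simulated data. Symbols are those of the deposited gene table, in which 67 genes share a symbol with another.

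The keratins and all gene lists were chosen with earlier results of these data known. Genes named beside them are other keratins of at least 20 CPM in a group, up to 4 called genes per list with the largest smaller difference, and the 3 genes of highest correlation with each keratin. Alternatives were pseudocounts of 0.1 and 10 CPM, TMM and median-of-ratios scaling, no minimum level, means over cells, deeper cells alone, cells without mesenchyme markers, equal weights of the progenitor classes, leaving out classes, and, chosen after seeing the data, leaving out the highest cell or the top 1% of cells. Depth was 44547639 to 87228093 UMIs per library.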

Additional observations from a re-analysis of the deposited data

Results flagged for a closer look

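Over the whole epithelium the TNF difference of 4 simple keratins had opposite signs in the 2 genotypes, lower with TNF in the wildtype and higher in Tnfr2-/-. On the log2(CPM + 1) scale it was −0.15 and 0.42 for Krt7, −0.20 and 0.32 for Krt8, −0.036 and 0.49 for Krt19, and −0.46 and 1.33 for Krt20, the wildtype first. With 1 library per condition the difference between the genotypes was not tested. Within Progenitor.1 Krt7, Krt8 and Krt19 were lower with TNF in both genotypes, while Krt20 was there under 20 CPM in all 4 libraries.

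The 35 cells without a class entered no comparison. They held simple keratins, far above the level that a count of 0 allows (1.43 CPM for 31 cells and 8.50 CPM for 4 cells). The 31 cells of the untreated wildtype had 2486 CPM of Krt8, 725 of Krt18 and 1886 of Krt19. The 4 cells of the untreated Tnfr2-/- library had 1682 CPM of Krt8, 589 of Krt18 and 1722 of Krt19. Their median depth was 66566 and 88648 UMIs, above the epithelial medians of 37245.5 and 41057.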

How the results depend on the processing

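No paired analysis was possible because each condition had 1 library, and leaving out a replicate could not be done for the same reason. Of 396 called values recomputed under an alternative, 394 kept their sign and 362 their call. The 2 others were Krt23 by genotype over the untreated epithelium (−0.47 with the progenitor classes weighted equally) and Krt16 by genotype in untreated Progenitor.2 (−0.34 without the top 1% of cells). The cause of these changes was not tested. Another pseudocount or no minimum level could not change a sign, and no minimum level could not end a call. The counts of 394 and 362 include these settings, so part of the agreement was fixed in advance.

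With means over cells, keratins called lower by genotype over the epithelium went from 1 to 0, and those lower with TNF in Progenitor.2 from 2 to 1. With equal weights of Progenitor.1 and Progenitor.2, those called higher by genotype over the epithelium went from 3 to 1 and those lower with TNF from 0 to 3. Without the highest cell, the counts were 0 lower by genotype in Progenitor.1, 0 higher by genotype in Progenitor.2 and 1 lower with TNF in Progenitor.2. Without the top 1% of cells, they were 1 higher by genotype over the epithelium, 0 lower by genotype and 1 lower with TNF in Progenitor.1, and 0 higher by genotype and 1 lower with TNF in Progenitor.2. TMM scaling, median-of-ratios scaling, a pseudocount of 10 CPM and leaving out Progenitor.3 and Secretory-Reg4-Ang4 each ended the call of Krt23 by genotype over the epithelium (0.92, 0.91, 0.70 and 1.00 in the untreated pair) and no other call of a keratin.

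The wound keratins' share of keratin UMIs was 1.15%, 3.27% and 2.58% with means over cells in the untreated wildtype and the untreated and TNF-treated Tnfr2-/- libraries, and 0.428%, 0.183%, 1.24% and 0.853% without the top 1% of cells in the 4 libraries. Without thinning, the shares of Progenitor.2 cells with a UMI of Krt6a, Krt14 and Krt16 were 11.0%, 18.3% and 11.7% in the TNF-treated wildtype, 35.6%, 21.9% and 22.7% in untreated Tnfr2-/-, and 24.3%, 12.7% and 24.4% in TNF-treated Tnfr2-/-.

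Over all genes, calls with TNF in Progenitor.2 were 22 higher and 27 lower, 36 and 20 with TMM, and 34 and 20 with median-of-ratios scaling. Those of Progenitor.2 against Progenitor.1 were 365 higher and 468 lower, and 456 and 381 with median-of-ratios scaling. By genotype over the epithelium they were 64 and 80, 32 and 54 with a pseudocount of 10 CPM, 38 and 73 with equal weights, and 204 and 261 with no minimum. With TNF over the epithelium they were 51 and 4, 35 and 0, 18 and 25, and 131 and 9 in the same order. Within Progenitor.2 by genotype they were 60 and 99, 31 and 71 with a pseudocount of 10 CPM, 78 and 186 with means over cells, and 240 and 252 with no minimum.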
